A study of Mus musculus with 4 samples.

Results

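The genes that retain, release and serve the sterol regulatory element binding proteins (SREBPs) were read in the livers of obese mice given intranasal GALP. They were Srebf1, Srebf2, Scap, Insig1, Insig2, Mylip, Stard4 and Npc1, and every non-control probe that carried one of these 8 gene names, of 26582 gene names in all, was taken. This gave 17 probes of the 41174 on the array, each printed as 1 spot, and 14 of the 17 had signal. A probe had signal when its spot stood well above background on every array, in 1 channel or both, which held for 15724 of the 41037 probes with a value on all arrays.

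Male C57BL/6J mice were kept on high-fat chow over 14 weeks until they weighed at least 40 g (diet-induced obese, DIO), and the mice were 8 weeks old when bought. They then received porcine GALP (galanin-like peptide, a hypothalamic neuropeptide; 1 nmol) or saline into the nose in a volume of 2 µL once daily for 11 days, and the GALP was dissolved in saline with 5% α-cyclodextrin. Liver RNA was pooled within groups. The GALP pools of greater and of less weight loss held 4 mice each, and the control pool held 8 saline-treated mice. All groups shared the strain, the diet and the nasal route. For the saline of the control pool no α-cyclodextrin is stated, so GALP and this additive cannot be told apart. Both GALP pools were set against that control on dual-colour Agilent arrays, 2 arrays per pool with the dyes exchanged. Values on the 4 arrays are given in 1 order below: the greater weight loss pool with GALP in Cy5 and then in Cy3, and the less weight loss pool with GALP in Cy5 and then in Cy3. They are log2 ratios of GALP over control, so a negative value is a lower signal with GALP. A pool's 2 arrays held identical extracts and count once as their average, and each ± is the SD over n = 2 pools. The control is 1 pool, whose own spread is in neither the SDs nor the tests. A pool of livers hides the spread between its mice.

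SREBPs are transcription factors made as precursors in the membrane of the endoplasmic reticulum. SCAP escorts them to the Golgi for cleavage when sterols are low, and the INSIG proteins hold SCAP and its cargo back when sterols are high. The released SREBP-2 mainly drives genes of cholesterol synthesis and uptake, and SREBP-1c, which insulin raises in the liver, mainly drives genes of fatty acid synthesis.

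The hepatic signals of Insig1 and Insig2 were lower with GALP in both pools, while those of Scap and of the brightest Srebf2 probe lay close to the control. All 4 Insig probes were below 0 on all 4 arrays, with mean log2 ratios from -0.76 to -0.42. The single Srebf1 probe averaged -0.38 and was also below 0 on all arrays. In all, 8 of the 14 member probes with signal were below 0 on all 4 arrays (15.7% of all probes with signal were). The 8 were the 4 Insig probes, Srebf1, the brightest Stard4 probe, and the Scap and Srebf2 probes that lay close to the control. Above 0 on all 4 was 1 of 14, at Npc1 (11.4% of all were).

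By the rule of the methods, 2 member probes were called lower, 1 of Insig1 and 1 of Insig2, and none was called higher. The rule asks for a p-value of the scanner software under 0.01 and the same direction on all 4 arrays, and in each pool a fold above 1.5 or below 0.75. Over all probes it called 0.132% lower and 0.0585% higher. The shares in this paragraph are over 41037 probes, with or without signal. All called probes (54 lower and 24 higher) were among the 15724 with signal, and 14 of the 17 member probes had signal. Without the p-value, 3 member probes met the fold and the direction on the lower side, against 0.877% of all probes, and the third was the other Insig2 probe. With limma on the pool ratios and Benjamini-Hochberg adjustment, 0 member probes passed an adjusted p of 0.05, and 0% of all probes did. At an unadjusted limma p under 0.05, 6 member probes were lower and 1 was higher, against 6.6% and 4.99% of all probes. The 2 pools left limma with 1 residual degree of freedom, and the smallest adjusted p over all probes was 0.374. The arrays measure RNA per labelled extract, so fewer cells of a type and less RNA per cell cannot be told apart.

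**Figure D1:**
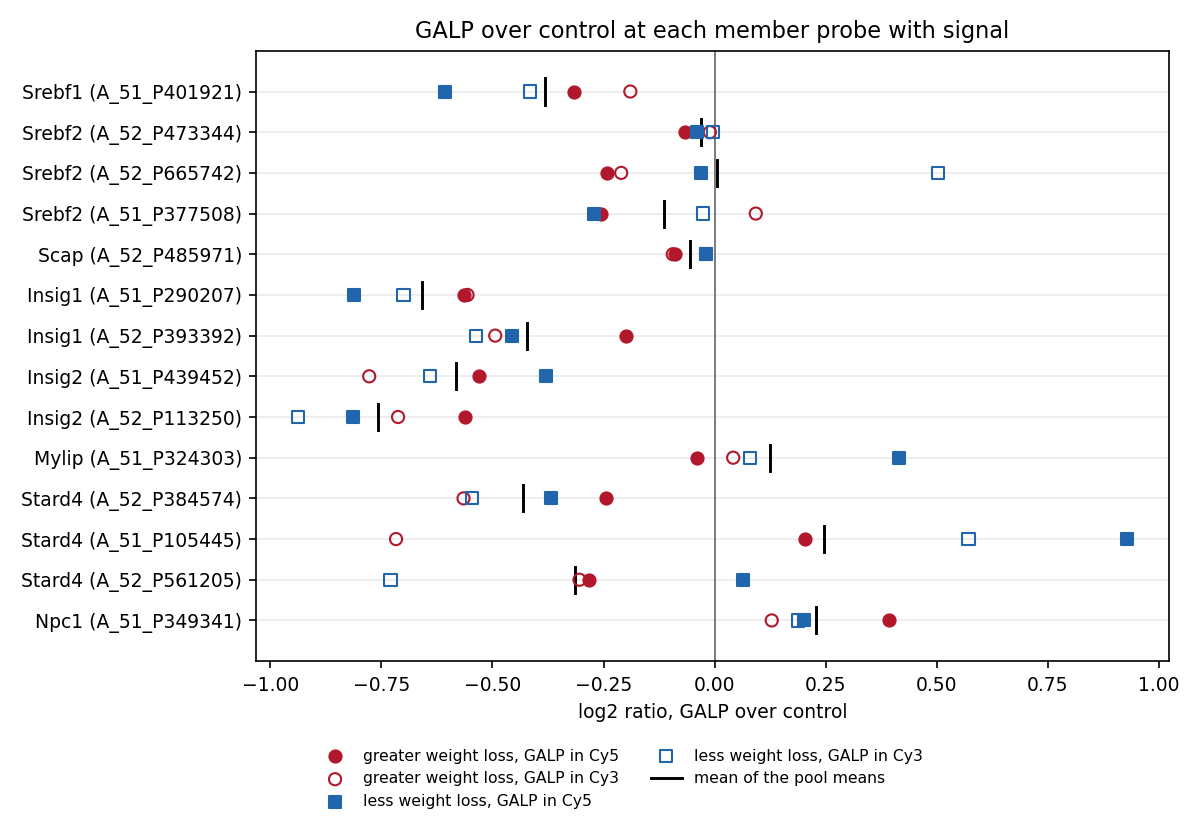
Log2 ratio of GALP over control (x axis) at each of the 14 member probes with signal (y axis, gene and probe), with 1 point per array and a black bar at the mean of the 2 pool means. All 16 points of the Insig1 and Insig2 probes sit left of 0, and all 4 points of Npc1 sit right of it.

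The tissue check and the state of the arrays were as follows. All 7 hepatocyte markers with a probe (Alb, Ttr, Apoa1 and others) were well above background in every channel, with a median log2 ratio of 0.01. Of 6 Kupffer cell and macrophage markers, all 6 were above background in every channel. Above 0 on all arrays were 4 of them, against 11.4% of all probes with signal, and 1 was called higher (Marco, 0.87 ± 0.25). Their summed signal was 23614 to 28719 in the GALP channels and 20671 to 23262 in the control channels. The rest of that list, Clec4f and Vsig4, averaged -0.0013 ± 0.16 and -0.07 ± 0.26. Pancreas markers had signal for 7 of 8 genes, with Gcg at background throughout. Their summed signal was 83024 to 102785 in the control channels and 6638 to 146735 in the GALP channels, and their median log2 ratio was -3.74 in the greater and 0.84 in the less weight loss pool. The 5 skeletal muscle markers ran the other way, with medians of 0.34 and -2.20 and summed signals of 1363 to 1616 in control and 263 to 2275 in GALP channels. Of 8 stomach and intestine markers, 4 had signal, Gkn1, Vil1 and Lct were at background throughout, and 2 were called lower: Gkn2, above background on 4 control and 0 GALP channels, and Tff1, above background on 4 control channels and 1 GALP channel. Tff2 stood at -3.79 in the greater and 0.68 in the less weight loss pool. The summed signal of this list, carried mostly by Fabp2, was 24951 to 33830 in control and 19743 to 28670 in GALP channels. Of 5 adipose markers, 2 had signal: Adipoq (0.38 in the greater and -0.26 in the less weight loss pool) and Cidea (-0.67 and 0.24). Lep and Retn were at background throughout. Of 5 bile duct markers, 4 had signal, with a median of -0.12, and Epcam was at background throughout. Of 5 stellate cell markers, 4 had signal, all with a mean above 0 and a median of 0.13. All 5 endothelial cell markers had signal, with a median of 0.05. The Insig ratios were negative in both pools. The pancreas and muscle medians had opposite signs in the pools, while Gkn2, Tff1 and the macrophage median (0.27 and 0.29) kept 1 sign. The part of these cell types in the ratios of the member genes was not tested. On the less weight loss array with GALP in Cy3, 13.9% of probes above background in both channels shone over 2 times brighter than on any other array, against 1.95% to 6.79% on the other arrays. Median log2 ratios of the probes with signal lay between -0.07 and 0.02 on the 4 arrays.

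Insig1 encodes the INSIG isoform whose own gene is driven by SREBPs. Its called probe, A_51_P290207 (chr5:28404246-28404305 of mm9), gave log2 ratios of -0.56, -0.56, -0.81 and -0.70. The processed signals were 794, 613, 434 and 706 in the GALP channels and 1173, 901, 762 and 1147 in the control channels. The GALP signal was the lower one on every array, and the less weight loss pool lay further below 0 than the greater on both dyes, with no overlap between the pools. The mean was -0.66 ± 0.14, a fold of 0.634, with an unadjusted limma p of 0.034 and an adjusted p of 0.406. With normexp background correction and loess in place of the software's processing, the pools stood at -0.39 and -0.48, and the greater pool then missed the fold of 0.75.

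The other Insig1 probe, A_52_P393392, covers 60 bases of the transcript that span 473 bases of chr5:28401146-28401618 of mm9 and so cross an intron. It is shown because it reads the spliced coding part of the message, apart from the called probe nearer the 3′ end.
A_52_P393392: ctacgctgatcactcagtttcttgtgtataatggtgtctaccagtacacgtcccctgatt
Its log2 ratios were -0.20, -0.49, -0.46 and -0.54. All were below 0, the pools overlapped, and the first array stood apart toward 0. The mean was -0.42 ± 0.11 (unadjusted limma p of 0.044), and it was not called: the p-value of the software was under 0.01 on 0 of 4 arrays, and the fold in the greater pool was 0.787. The mean was -0.28 under normexp and loess. Both Insig1 probes thus had the same sign on every array and differed in size.

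Insig2 encodes the isoform that is not known as an SREBP target. In the liver it has a transcript that insulin lowers and fasting raises, and its transcripts differ in their first exons and give the same protein. The files assign its 2 probes to different transcripts, and the probes start 1048 bases apart on the minus strand of chromosome 1 of mm9. Whether either probe is specific to a transcript was not tested.

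The called Insig2 probe, A_52_P113250 (chr1:123202133-123202192 of mm9), gave -0.56, -0.71, -0.81 and -0.94. The processed signals were 310, 183, 222 and 182 with GALP and 457, 301, 391 and 349 in control. The 2 pools did not overlap, and the less weight loss pool lay lower. The mean was -0.76 ± 0.17, a fold of 0.592, with an unadjusted limma p of 0.037 and an adjusted p of 0.411. Under normexp and loess the pools stood at -0.37 and -0.33, on the same side of 0 and above the fold of 0.75.

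The brighter Insig2 probe, A_51_P439452 (chr1:123201085-123201144 of mm9), gave -0.53, -0.78, -0.38 and -0.64. Its processed signals were 7957, 6446, 9413 and 7417 with GALP and 11490, 11048, 12251 and 11560 in control. All GALP signals lay below all control signals, the pools overlapped, and on both pools the array with GALP in Cy3 was the lower. The mean was -0.58 ± 0.10 (fold of 0.668, unadjusted limma p of 0.026). The fold was under 0.75 in both pools, and the software's p-value was under 0.01 on 2 of 4 arrays. Under normexp and loess the pools stood at -0.63 and -0.48. This probe kept its size under that correction, whereas the mean of the called probe moved from -0.76 to -0.35.

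**Figure D2:**
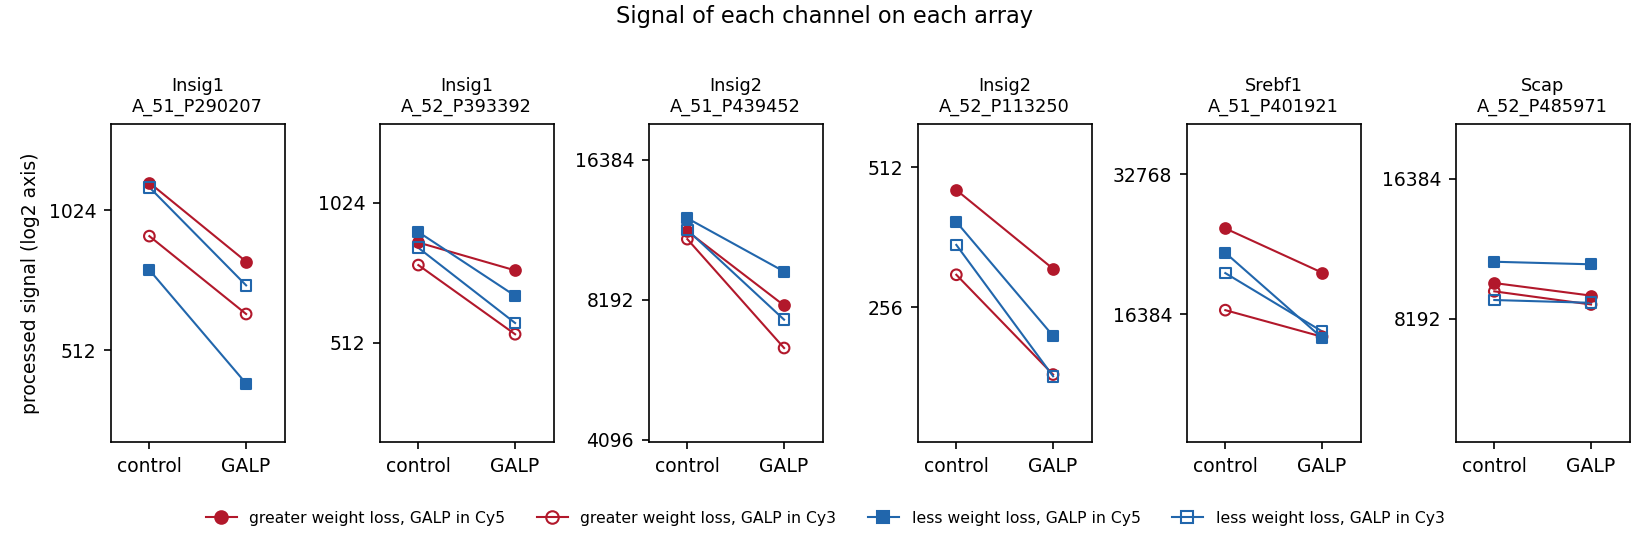
Processed signal of the control and the GALP channel (y axis, log2 scale, each panel on its own range of equal fold width) on each of the 4 arrays, for the Insig1, Insig2, Srebf1 and Scap probes. Each line joins the 2 channels of 1 array, and all lines of the 4 Insig panels fall from control to GALP, while those of Scap run nearly flat.

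The promoters of the members were read for letters of SREBP and partner sites in the RefSeq table on GRCm38.p6. Windows were found for 6 of the 8 genes, 11 in all, because genes with several transcript starts have several. In the 250 bases before the start, both strands were searched for the sterol regulatory element TCACCCCAC, its looser form TCACNCCAC, the E-box CACGTG, the CCAAT box (CCAAT) and the GC box (GGGCGG). The shares of all 32851 windows that held them were 0.496%, 1.05%, 6.02%, 33.8% and 32.7%. Neither TCACCCCAC nor TCACNCCAC was found in any of the 11 member windows. The shorter TCACCCCA, which is contained in TCACCCCAC and was searched after the windows had been seen, was found in 1 of 11, that of Srebf2, and in 1.34% of all windows. The windows of Insig1 and Insig2 are printed because their probes moved down together, and that of Srebf2 because it holds the shorter element while its brightest probe stayed near 0. Capitals mark TCACCCCA, CACGTG and CCAAT on either strand, so that ATTGG is a CCAAT box of the other strand.
Insig1, chr5:28071162-28071411, plus strand: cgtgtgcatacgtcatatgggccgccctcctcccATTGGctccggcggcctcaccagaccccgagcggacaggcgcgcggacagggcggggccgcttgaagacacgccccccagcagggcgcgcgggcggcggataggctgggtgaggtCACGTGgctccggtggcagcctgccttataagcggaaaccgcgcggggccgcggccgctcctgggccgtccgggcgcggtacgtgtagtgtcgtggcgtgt
Insig2, chr1:121332590-121332839, minus strand: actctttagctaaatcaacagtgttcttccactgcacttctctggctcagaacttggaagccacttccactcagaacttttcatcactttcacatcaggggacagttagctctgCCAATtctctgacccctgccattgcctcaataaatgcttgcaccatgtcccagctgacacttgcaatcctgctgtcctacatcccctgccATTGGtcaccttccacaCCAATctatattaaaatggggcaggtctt
Insig2, chr1:121328025-121328274, minus strand: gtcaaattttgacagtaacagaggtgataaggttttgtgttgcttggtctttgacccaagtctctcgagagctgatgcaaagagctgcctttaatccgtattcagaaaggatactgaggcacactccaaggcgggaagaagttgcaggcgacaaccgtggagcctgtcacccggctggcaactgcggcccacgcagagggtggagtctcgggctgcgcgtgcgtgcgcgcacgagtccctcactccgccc
Insig2, chr1:121327679-121327928, minus strand: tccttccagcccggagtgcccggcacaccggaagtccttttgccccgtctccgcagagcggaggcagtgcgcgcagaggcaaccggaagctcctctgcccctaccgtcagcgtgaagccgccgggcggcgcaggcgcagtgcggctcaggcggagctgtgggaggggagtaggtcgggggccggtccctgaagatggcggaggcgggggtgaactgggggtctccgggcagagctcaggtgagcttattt
Srebf2, chr15:82147019-82147268, plus strand: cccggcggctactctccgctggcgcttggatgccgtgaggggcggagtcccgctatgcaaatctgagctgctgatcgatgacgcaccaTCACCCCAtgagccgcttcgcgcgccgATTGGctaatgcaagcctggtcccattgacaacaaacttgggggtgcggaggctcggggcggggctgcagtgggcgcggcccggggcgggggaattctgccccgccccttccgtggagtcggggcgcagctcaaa
The Insig1 window held 1 E-box, 101 bases before the start, 1 CCAAT box and 3 GC boxes. Of the 3 Insig2 windows, the first held 3 CCAAT boxes and no GC box, and the others held 1 GC box each and no CCAAT box. The GC content was 72.8% in the Insig1 window and 47.2%, 56.8% and 69.6% in the Insig2 windows, beside a median of 52.4% over all windows. The Srebf2 window held the shorter element 162 bases before the start, with 1 CCAAT box and 4 GC boxes. The second E-box among the member windows was in 1 of the 2 windows of Scap. These are letter matches in short windows, and no binding was measured on these arrays.

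Srebf1 encodes SREBP-1a and SREBP-1c from alternative starts, and its only probe lies near the 3′ end (A_51_P401921, chr11:60013214-60013273 of mm9), which both transcripts share. It gave -0.32, -0.19, -0.61 and -0.42. The processed signals were 20151, 14676, 14593 and 15071 with GALP and 25083, 16738, 22234 and 20107 in control. The GALP signal was lower on every array, and the less weight loss pool lay below the greater without overlap. The mean was -0.38 ± 0.18 (fold of 0.767, unadjusted limma p of 0.108), so it missed the fold in the greater pool, where the mean was -0.25, and met it in the less, where it was -0.51.

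Srebf2 encodes SREBP-2 and had 4 probes, which did not move as 1. The brightest, A_52_P473344, gave -0.07, -0.01, -0.04 and -0.0034, with a mean of -0.03 ± 0.01. Its signals were 1964 to 2589 with GALP and 1978 to 2662 in control, and the channels overlapped. A_51_P377508 gave -0.26, 0.09, -0.27 and -0.03, below 0 with GALP in Cy5 and on both sides of 0 with GALP in Cy3.

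A_52_P665742, which the files place on another Srebf2 transcript, gave -0.24, -0.21, -0.03 and 0.50. The last array stood apart in level too, with signals of 775 and 547 against 234 to 341 on the other arrays, and the mean (0.01 ± 0.33) turned to -0.13 without it. A_52_P302001 was at background on 3 of the 4 arrays and read 317 with GALP and 202 in control on the fourth, the greater weight loss pool with GALP in Cy3. That array stood 15.7 times above the next brightest, and no fold is given for this probe.

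Scap, the escort of the SREBPs, gave -0.09, -0.09, -0.02 and -0.02 at its single probe (A_52_P485971). Its signals were 8799 to 10736 with GALP and 8997 to 10873 in control. The dye orientations of a pool differed by less than 0.01, the pool means were -0.09 and -0.02, and the mean was -0.06 ± 0.05 (unadjusted limma p of 0.26). The mean was -0.14 under normexp and loess.

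Mylip encodes a ubiquitin ligase, also called IDOL, that marks lipoprotein receptors for breakdown and is a target of the sterol sensor LXR. Its probe with signal, A_51_P324303, gave -0.04, 0.04, 0.42 and 0.08. All but 1 array lay near 0 and the less weight loss pool with GALP in Cy5 stood above, with a mean of 0.12 ± 0.17. The other Mylip probe was at background in every channel and has no ratio.

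Stard4 encodes a small carrier of cholesterol in the cytosol and is known as an SREBP-2 target. Its brightest probe, A_52_P384574, gave -0.25, -0.57, -0.37 and -0.55, with signals of 919 to 1257 with GALP and 1360 to 1512 in control. All GALP signals lay below all control signals, and the pools overlapped. The mean was -0.43 ± 0.04 (fold of 0.741, unadjusted limma p of 0.01, adjusted p of 0.374), with the greater pool just above the fold of 0.75 (0.755) and the less pool below it (0.728). The mean was -0.25 under normexp and loess.

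The other Stard4 probes did not show the same values. They overlap by 20 of their 60 bases near the start of the transcript and thus share only a part of their target. A_52_P561205, gave -0.28, -0.30, 0.06 and -0.73, and was not above background in the GALP channel of the last array. Its signals were 64 to 127, and its mean of -0.31 ± 0.03 (unadjusted limma p of 0.012) became -0.03 under normexp and loess. A_51_P105445 gave 0.20, -0.72, 0.93 and 0.57, and its control was not above background on the third array. On the last of these arrays its signals were 616 and 414 against 40 to 89 elsewhere, 6.12 times above the next brightest array, and the overlapping probe read 64 and 106 there. The level of A_51_P105445 on that array was therefore not shared by the probe that overlaps it in part.

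Npc1 encodes the membrane protein that passes cholesterol out of lysosomes after uptake. Its probe with signal, A_51_P349341, gave 0.39, 0.13, 0.20 and 0.19, with signals of 387 to 561 with GALP and 354 to 480 in control. It was the only member probe above 0 on all 4 arrays, and the channels overlapped in level. The mean was 0.23 ± 0.05 (fold of 1.17, unadjusted limma p of 0.034, adjusted p of 0.407), and 0.13 under normexp and loess. Npc1's other probe, assigned to another transcript and with a GC content of 16.7%, was at background in every channel.

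**Figure D3:**
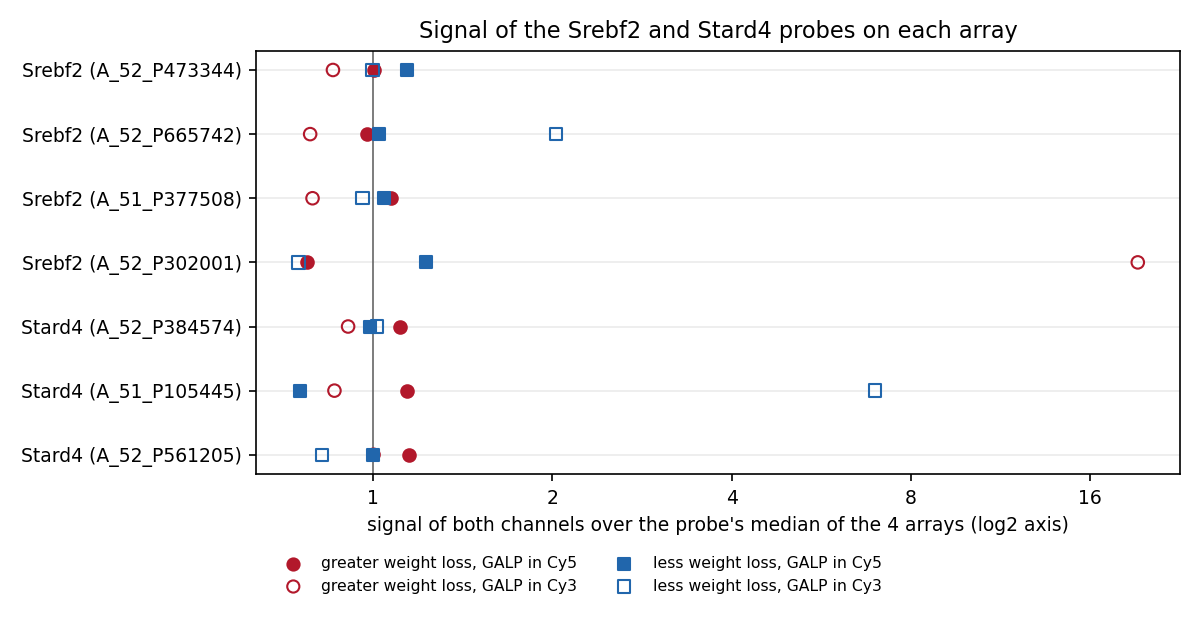
Signal of both channels (geometric mean) on each array over the median of the 4 arrays, for the same probe (x axis, log2 scale), at the 4 Srebf2 and 3 Stard4 probes (y axis). Levels can be compared within a probe only. A_52_P302001 on 1 array of the greater pool and A_51_P105445 and A_52_P665742 on 1 array of the less pool stand at 19.3, 6.98 and 2.03 times their medians.

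The pools were set side by side, with no test, since each is 1 sample and both share the control. At 5 of the 14 member probes with signal the difference between the pools exceeded the gap between dye orientations in both pools, which was so for 16.3% of all probes with signal. At 3 of these (Srebf1, the called Insig1 probe and the called Insig2 probe) the less weight loss pool was the lower, by 0.26, 0.20 and 0.24 on the log2 scale. At the other 2 (Scap and 1 Stard4 probe) it was the higher. For Stard4 this was the probe that stood apart on 1 array (A_51_P105445). The arrays of the 2 pools did not overlap at 7 of the 14 probes. At 3 of these, Srebf1 and the called Insig probes, the less weight loss pool was the lower. At the rest (Scap, Mylip, A_52_P665742 and A_51_P105445) it was the higher. The share of all probes without overlap was not taken, so this count is not read as a trait of the member genes. Over the 14 probes the median difference, greater minus less, was 0.05, and it took the other sign under normexp and loess (-0.02) and with either dye orientation alone.

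**Figure D4:**
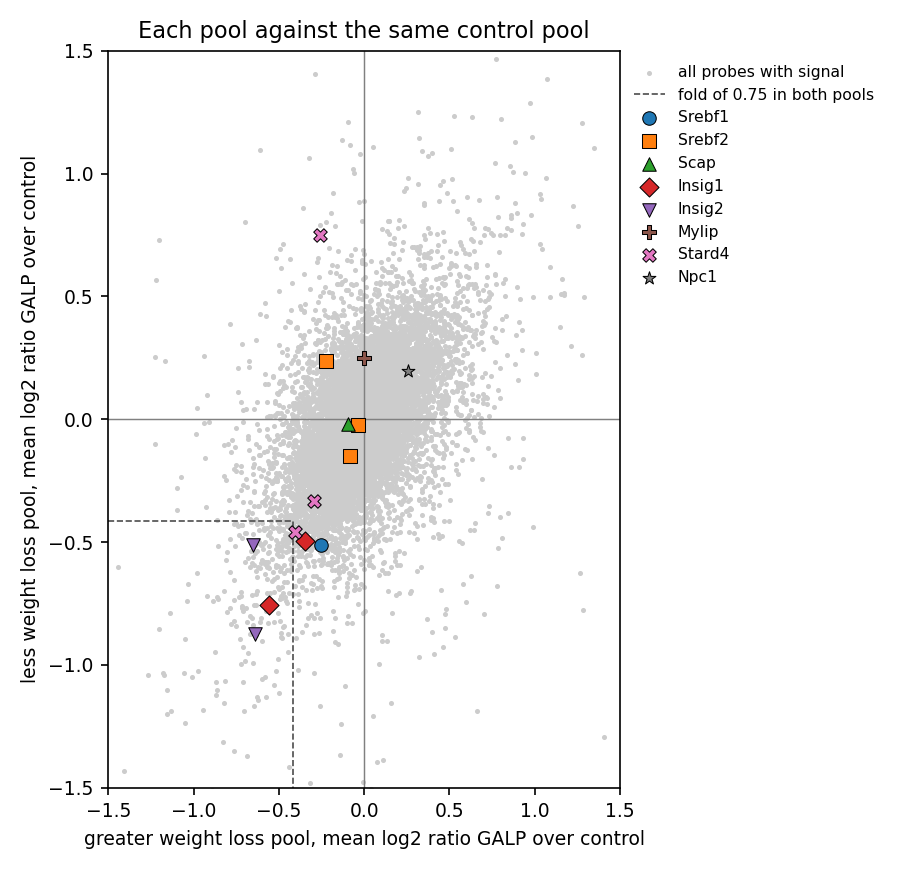
Mean log2 ratio of GALP over control in the greater weight loss pool (x axis) and the less weight loss pool (y axis), for all probes with signal (grey; 115 lie outside the axes) and the 14 member probes (coloured by gene). Both pools share the control, so the tilt of the grey cloud includes the control's own deviation. Both called probes and the brighter Insig2 probe lie inside the dashed lines at a fold of 0.75.

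The genes around the members were read by list, with the brightest probe standing for a gene and genes at background left out. Their medians are set beside -0.02, the median of all probes with signal. Of all probes with signal, 15.7% were below and 11.4% above 0 on all 4 arrays. Of all 41037 probes, with or without signal, 6.6% were lower and 4.99% higher at an unadjusted limma p under 0.05. The share of all probes with a mean below 0 was not taken. Of 16 genes of SREBP processing and turnover, 13 had signal. Of these, 7 were below and 6 above 0, 1 was below 0 on all arrays, none was called by the rule and 1 had an unadjusted limma p under 0.05, on the lower side. The median was -0.01, and its sign turned under normexp and loess. The largest means were 0.13 ± 0.06 for Ube2g2, a ubiquitin-conjugating enzyme of the endoplasmic reticulum, 0.13 ± 0.18 for Marchf6, a ubiquitin ligase of sterol synthesis enzymes, -0.11 ± 0.04 for Vcp, the segregase that draws proteins out of that membrane, and 0.10 ± 0.08 for Rnf145, a ligase of the same membrane. A second Ube2g2 probe gave -0.22 ± 0.69 and a second Vcp probe 0.02 ± 0.11, each of the opposite sign.

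The mevalonate and sterol synthesis list held the targets that SREBP-2 is best known for. All 20 genes had signal, 19 had a mean below 0, 16 were below 0 on all 4 arrays and 9 had an unadjusted limma p under 0.05, all lower. The median was -0.36. Mvd, a decarboxylase of the mevalonate pathway, was called lower with -0.91, -1.04, -1.06 and -0.99 (mean -1.0 ± 0.03). Cyp51, which removes a methyl group from lanosterol, averaged -0.70 ± 0.12, and its other probes -0.29 and -0.54. Hmgcs1, which makes the precursor of mevalonate, averaged -0.58 ± 0.21. Sqle, which oxidises squalene, averaged -0.53 ± 0.31.

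For 3 more of these genes a dimmer probe was called lower while the brightest was not, so the probes disagree in size but not in sign. Fdps, the farnesyl diphosphate synthase, stood at -1.66 ± 0.20 and -0.29 ± 0.11. Idi1, the isopentenyl diphosphate isomerase, stood at -0.74 ± 0.04 and -0.34 ± 0.15. Sc5d, a sterol desaturase, stood at -0.80 ± 0.06 and -0.37 ± 0.09.

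Of the 12 SREBP-1 targets of lipogenesis, 10 had signal, all 10 had a mean below 0, 8 were below 0 on all 4 arrays and 3 had an unadjusted limma p under 0.05, all lower. The median was -0.36. Pnpla3 was among the genes at background, and no probe with a value on all arrays was found for Scd1. Gpam, the acyltransferase that starts glycerolipid synthesis, was called lower at both of its probes, with -0.69 ± 0.04 and -1.16 ± 0.04. Fasn, the fatty acid synthase, averaged -0.81 ± 0.33 at its brightest probe and was called lower at the other, with -0.88 ± 0.37. That probe gave -0.61, -0.63, -1.15 and -1.14, with the less weight loss pool the lower, as at Srebf1. Acly, which makes cytosolic acetyl-CoA, averaged -0.60 ± 0.20, and Me1, the malic enzyme, -0.41 ± 0.07.

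Genes of sterol uptake, transport and storage did not lean to 1 side. Of 18 genes, 16 had signal, with 7 below and 9 above 0 and a median of 0.08, and none was called. At an unadjusted limma p under 0.05, 4 were lower and 2 higher. Among the 4, Soat2 gave 0.24, -0.35, 0.15 and -0.27, so its sign followed the dye in both pools. Lipa, also among them, gave -0.46, -0.07, -0.60 and 0.12. Gramd1c, a sterol transfer protein, averaged -0.46 ± 0.01, with -0.69, -0.20, -0.48 and -0.46 on the arrays. Soat1, which esterifies cholesterol for storage, averaged 0.33 ± 0.08. Gramd1a averaged 0.32 ± 0.20, with 0.60, -0.24, 0.73 and 0.19, and was above background in 3 control channels. Lrp1, an uptake receptor, averaged 0.31 ± 0.08, with 0.34, 0.41, -0.09 and 0.59.

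The 11 LXR receptors and targets all had signal, with 3 below and 8 above 0, none called and a median of 0.04. At an unadjusted limma p under 0.05, 1 was lower. Abcg1, a cholesterol exporter, had the largest mean of the list (0.36 ± 0.13), with 0.19, 0.72, -0.03 and 0.57 on the arrays. Arl4c averaged 0.15 ± 0.10, Lpcat3 -0.10 ± 0.01 and Abcg8 0.10 ± 0.08. Lpcat3 was the gene with the unadjusted limma p under 0.05. Its arrays gave -0.28, 0.09, -0.39 and 0.17, so its sign followed the dye in both pools. The Mylip ratio of 0.12 lay within the range of this list, from -0.10 to 0.36.

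**Figure D5:**
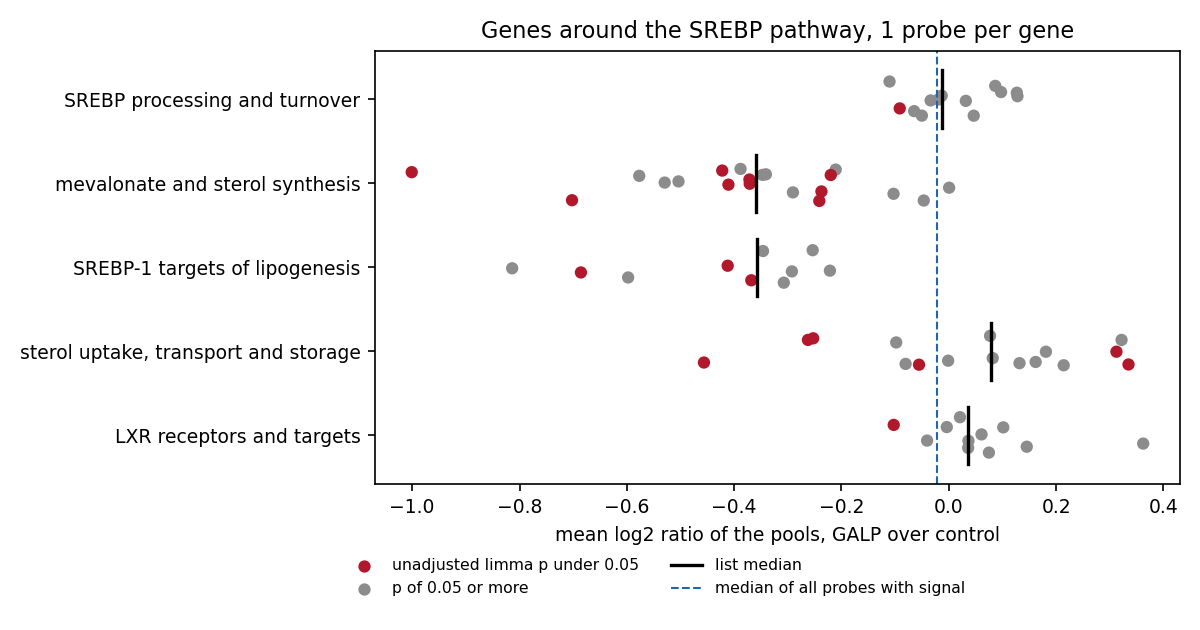
Mean log2 ratio of GALP over control (x axis) of each gene with signal in the 5 lists (y axis, 1 probe per gene, spread within a list for sight only), with black bars at the list medians. The medians of sterol synthesis and lipogenesis sit at -0.36, and those of the other lists lie near the dashed line at -0.02, the median of all probes with signal.

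The probes most like the Insig probes were found by the distance between their 4 log2 ratios (Euclidean, n = 4 arrays, over probes with signal). For the called Insig1 probe they were Coq8a (distance of 0.10), Efna1 (0.16) and a transcript without a gene symbol in the files (0.16). For the other Insig1 probe they were Elovl5, a fatty acid elongase (0.09), Arsg (0.10) and Xiap (0.10). For the called Insig2 probe they were Mup1 (0.12), Mup2 (0.16) and Rab22a (0.16). The Mup genes are a family of near-identical copies, so these probes may read several of them. For the brighter Insig2 probe they were Cirbp (0.17), Myo6 (0.17) and C730027H18Rik (0.18). Probes of other genes within a distance of 0.5 numbered 141 for the called Insig1 probe (0.897% of those compared), 867 for the other Insig1 probe (5.51%), 88 for the called Insig2 probe (0.56%) and 224 for the brighter one (1.42%).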

How the data were processed

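Liver RNA pools were compared on 4 dual-colour Agilent arrays (n = 2 GALP pools, 1 control pool). The labels give the control channel a weight loss group too, but the paper describes 1 control pool, and it was treated as such. The processed intensity of a channel is, per the file headers, the output of Agilent Feature Extraction 12.0.3.1 after background subtraction and LOWESS dye normalization (the submitters' processing notes name 11.0.1.1). The deposited log10 ratio is Cy5 over Cy3, set to 0 where both signals were substituted at background. The deposited p-value compares the extracts of 1 array. The deposited series table gives these log10 ratios as GALP over control and served as an alternative. Probe positions are on mm9 as in the files.

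All ratios were set as GALP over control on the log2 scale, spots with outlier marks (232 to 319 per array) were left out, and both arrays of each pool were averaged. limma 3.58.1 in R 4.3.3 (lmFit, eBayes) tested the 2 pool ratios against 0, with Benjamini-Hochberg adjustment over 41037 probes. It and the rule of the methods, whose number of arrays the paper does not state and which was read strictly, were tested on simulated data. No spot was saturated, and precision is limited by the number of arrays. All member probes are named, and from each list the 4 genes with the largest mean ratio either way, any gene with a called probe and the genes most like an Insig probe. The members and lists were chosen with earlier results of these data known. Python 3.11.15 with pandas 2.3.3, numpy 2.4.6 and matplotlib 3.10.9 made the tables and plots.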

Additional observations from a re-analysis of the deposited data

How the results depend on the processing

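limma gave 0 member probes at an adjusted p under 0.05 under all 15 alternatives, with 6 lower and 1 higher at an unadjusted p in the original fit. The rule of the methods called 2 member probes, the same 2 with any pool or any array left out. Both met the p-value, the direction and the fold on each array, so no such omission could lose them. The rule called 0 under normexp and loess, 4 with GALP in Cy3 only (both Insig2 probes, 1 Insig1 and 1 Stard4 probe) and 1 (Insig2) when the lower fold was set to 1/1.5. Over all probes it called 24 higher and 54 lower, and 9 and 26 under normexp and loess, 133 and 139 with GALP in Cy5 only, 140 and 156 with GALP in Cy3 only, 53 and 166 with p on at least 1 array of each pair, and 154 and 360 without p. Without the greater pool the counts were 96 and 149, and without the less pool 120 and 162. Without 1 array they ran from 27 to 40 higher and from 65 to 69 lower.

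The mean log2 ratios of the 14 member probes kept their sign under all 15 alternatives at 11 probes, among them all Insig probes and Srebf1. At the other 3 it turned for A_52_P665742 (Srebf2; -0.14 with GALP in Cy5 only, -0.0023 and -0.13 without replicate 2 of the greater or of the less pool, -0.23 without the less pool, against 0.24 without the greater), A_51_P377508 (Srebf2; 0.033 with GALP in Cy3 only) and A_51_P105445 (Stard4; -0.073 with GALP in Cy3 only, -0.26 without the less pool, against 0.75 without the greater). The cause was not tested. The Insig and Srebf1 probes lay below 0 on all 4 arrays. Leaving out arrays, a pool or a dye orientation, or averaging linear ratios, could therefore not turn their sign. Some alternatives left the means of all 14 member probes unchanged and so could turn no sign. These were centring on the array median, the series table, keeping outlier marks and the filter on dim probes. Under normexp and loess 11 of the 14 means moved by over 1.5 times, and those of Srebf1, Mylip and the brighter Insig2 probe did not.

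Under normexp and loess the list medians were 0.0024 for SREBP processing, -0.27 for sterol synthesis and -0.26 for lipogenesis. Centring on the probes with signal gave 0.0078 for SREBP processing, and the mean over all probes of a gene gave -0.026. With a pool or an array left out the medians ran from -0.028 to 0.0040 for SREBP processing, -0.39 to -0.27 for sterol synthesis, -0.48 to -0.35 for lipogenesis, 0.034 to 0.10 for sterol uptake and -0.0033 to 0.064 for LXR. The median pool difference of 0.05 became -0.016 under normexp and loess, -0.0049 with GALP in Cy5 only and -0.013 with GALP in Cy3 only. Leaving out arrays, centring on the probes with signal and the element TCACCCCA were chosen after the data had been seen. Signal over background limits Mylip, Npc1 and Srebf2 at 1 probe each.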
